A study of Mus musculus with 4 samples.

Results

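Synaptic vesicle and active zone genes, the genes that load, dock and release neurotransmitter vesicles, were followed in neurons made from mouse embryonic stem (ES) cells. The set holds 38 genes listed by name for their role, with no threshold on their values, out of 34968 gene symbols shared by all libraries. 34 of them passed the filter on low values, 1 TPM or more (transcript abundance scaled to transcript length and library total) in 2 or more libraries, and were tested among 12975 genes. Sv2b, Cplx3, Unc13c and Bsn did not pass it.

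Neurons came from ES cell lines of strain C57/BL6 whose parental line carries Dlx6-Cre and Ai9, so that cells with Dlx6-driven Cre express tdTomato. The line labelled N/D carried Nkx2-1 and Dlx2 as transcriptional specifiers, and the line labelled N/D/S carried Nkx2-1, Dlx2 and St18, a zinc finger factor of the Myt1 family. Both lines were clones selected in hygromycin, with the Nestin promoter driving Nkx2-1 together with a tetracycline transactivator that in turn drives the other factors. Both were treated with XAV-939 and SAG as floating embryoid bodies, and tdTomato+ cells were sorted on day 12 into 2 libraries per line. The comparison asks how the release machinery differed when St18 was added to Nkx2-1 and Dlx2. The labels do not say that the replicates were separate cultures, so p-values measure only the spread between these libraries.

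The targeted gene did not separate the lines. By label, the N/D/S libraries held St18 at 44.4 and 15.9 TPM and the N/D libraries at 28.5 and 26.6 TPM, and the groups overlapped. Nkx2-1 was at 39.6 and 18.3 TPM against 16.5 and 48.6, and Dlx2 at 259 and 147.5 TPM against 71.1 and 188. All directions below therefore rest on the labels. All 8 pan-neuronal markers were at or above 1 TPM in every library, and so were all 10 markers of GABAergic and subpallial neurons. Their sums were uneven. Summed pan-neuronal markers were at 5172 and 3343 TPM in N/D/S and at 4528 and 3297 TPM in N/D. Summed GABAergic and subpallial markers were at 1619 and 666 TPM against 655 and 1384 TPM. Summed markers of pluripotent cells were at 327 and 193 TPM in the replicate 2 libraries of N/D/S and N/D, against 3.66 and 0.247 TPM in their replicate 1 libraries. Summed astrocyte and oligodendrocyte markers were at 91.2 and 224 TPM against 25.0 and 5.39 TPM in the same order. The part of these cells in the members' levels was not tested, and in bulk libraries fewer cells of a type and less RNA per cell cannot be told apart.

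A synaptic vesicle is held near the presynaptic membrane by Rab3 proteins and the RIM scaffolds of the active zone. Munc13 proteins (Unc13 genes) prime it, and the SNARE proteins synaptobrevin (Vamp2), SNAP-25 (Snap25) and syntaxin-1 (Stx1a) draw the membranes together. Synaptotagmins sense calcium and trigger fusion, complexins bind the assembled SNAREs, and NSF with its SNAP adaptors (Napa, Napb) takes them apart again. Young neurons express many of these genes before they form synapses.

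Sequence upstream of the start site was available for 30 of the 38 members, from RefSeq on GRCm38.p6, and the 250 bases before each start were searched on both strands. The core AAGTTT, recognised by Myt1 family factors, was found in 5 of 30 members (16.7%), namely Syn2, Cplx2, Rab3a, Rab3b and Rims3, against 14.5% of 27025 genes. The cAMP response element TGACGTCA was found in 1 member, Syn1, against 1.77% of genes. The GC box GGGCGG was found in 22 of 30 members (73.3%) against 35.4%, and TATAAA in 2, Sv2b and Rab3b, against 14.3%. No exact match to the core of the RE1 element was found in any member, against 0.0111% of genes (3 of 27025). So rare a pattern would hardly be met in 30 genes. Near matches were not searched, so its absence does not show that the members lack RE1 elements. These matches are letters in a window and not binding sites. 4 upstream stretches are shown for members that the values below turn on. Syn1 had the most even level of the tested members over the 4 libraries, Rab3a the highest, and Rab3a, Rims3 and Cplx2 are members with the Myt1 core whose values did not overlap between the lines. Each is written 5′ to 3′ on the gene's strand and ends before the annotated gene begins. Capitals mark the response element in Syn1 and the Myt1 core, or its reverse complement AAACTT, in the others.
Syn1, chrX:20921005-20921168, minus strand: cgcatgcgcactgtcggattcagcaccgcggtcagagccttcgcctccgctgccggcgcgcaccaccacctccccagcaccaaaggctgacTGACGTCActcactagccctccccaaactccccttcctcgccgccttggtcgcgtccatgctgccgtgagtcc
Rab3a, chr8:70754453-70754678, plus strand: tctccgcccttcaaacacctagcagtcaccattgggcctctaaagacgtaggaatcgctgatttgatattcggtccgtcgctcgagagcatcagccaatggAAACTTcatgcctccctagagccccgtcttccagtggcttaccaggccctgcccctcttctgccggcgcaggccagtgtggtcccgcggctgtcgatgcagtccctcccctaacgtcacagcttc
Rims3, chr4:120854549-120854798, plus strand: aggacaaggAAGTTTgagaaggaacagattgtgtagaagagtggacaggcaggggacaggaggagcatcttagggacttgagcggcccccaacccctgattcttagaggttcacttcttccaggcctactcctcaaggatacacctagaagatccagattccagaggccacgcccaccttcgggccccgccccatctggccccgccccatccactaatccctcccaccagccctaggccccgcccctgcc
Cplx2, chr13:54302306-54302555, plus strand: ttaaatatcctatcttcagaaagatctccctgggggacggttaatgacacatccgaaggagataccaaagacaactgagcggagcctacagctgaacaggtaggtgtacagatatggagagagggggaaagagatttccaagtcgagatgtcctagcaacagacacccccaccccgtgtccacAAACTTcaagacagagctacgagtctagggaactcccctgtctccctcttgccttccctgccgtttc
The element of Syn1 lay 159 to 152 bases before the RefSeq start, the cores of Rab3a and Rims3 149 to 144 and 241 to 236 bases before theirs, and that of Cplx2 67 to 62 bases before. The RefSeq start of Cplx2 lies upstream of the gene as annotated in GENCODE, whose first base is 54371349 on chromosome 13.

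The release machinery was expressed in every library. The libraries labelled N/D/S had a median member level of 24.2 and 11.3 TPM, and those labelled N/D of 22.2 and 25.1 TPM, against 19.8, 10.1, 4.96 and 18.0 TPM over all genes tested in the same order. Summed over the 38 members, the N/D/S level was 2430 and 1948 TPM and the N/D level 1492 and 2342 TPM. The lowest sum, that of N/D replicate 1, lay beside a median of all tested genes that was also the lowest. Between 21 and 26 members reached 10 TPM in a library, and Rab3a was the highest member in all 4.

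**Figure D1:**
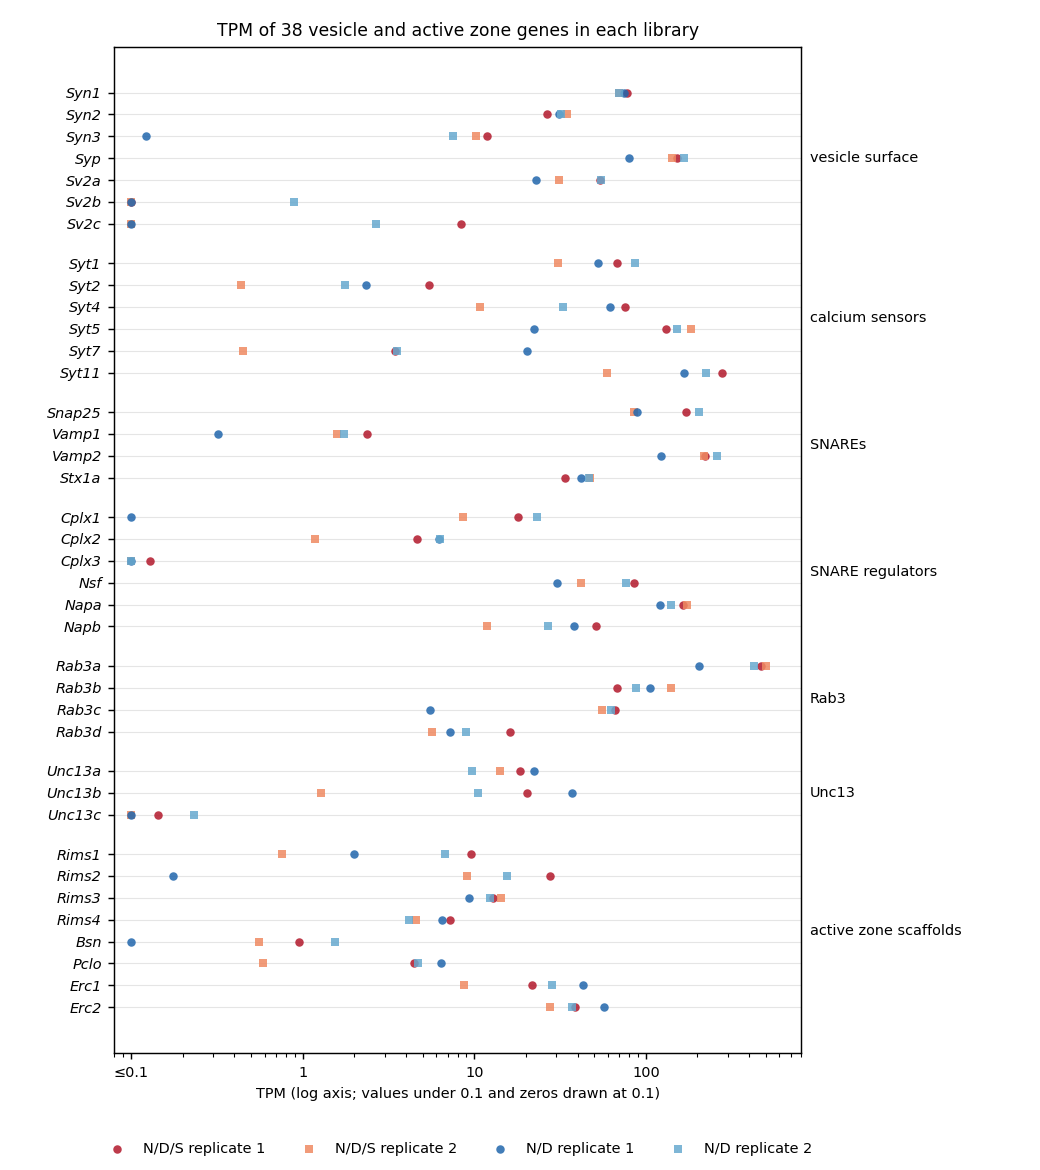
TPM of each of the 38 members on a log axis, grouped by role, with 1 point per library, circles for replicate 1 and squares for replicate 2, and with values under 0.1 and zeros drawn at 0.1. Syn1 lies between 69.5 and 78.1 TPM in all 4 libraries, while Syn3, Cplx1 and Rims2 are near or at the left edge in N/D replicate 1 alone.

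Genes of the vesicle surface came first. Synapsin I (Syn1), which tethers vesicles into the reserve pool, was at 78.1 and 69.5 TPM in N/D/S and at 74.5 and 69.9 TPM in N/D. Synapsin II (Syn2) was at 26.7 and 34.6 TPM against 31.1 and 32.0 TPM. Synapsin III (Syn3), the synapsin known for expression early in neuronal development, was at 11.8 and 10.2 TPM against 0.122 and 7.50 TPM. The first pair of genes thus overlapped between the lines within a narrow range, while both N/D/S libraries lay above both N/D libraries for Syn3, by far the more over N/D replicate 1. The log2 difference, N/D/S minus N/D on log2(TPM + 1), was 0.03 ± 0.955 (SE, n = 2 against 2) for Syn1, with a 95% interval from -2.23 to 2.29. For Syn3 it was 1.96 ± 1.23, with an interval from -0.95 to 4.87, and it was 0.50 without N/D replicate 1. This scale understates the change of genes at low level.

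Synaptophysin (Syp), an abundant membrane protein of vesicles, was at 153 and 142 TPM in N/D/S and at 80.3 and 167 TPM in N/D. Sv2a, a vesicle glycoprotein, was at 54.1 and 31.1 TPM against 23.0 and 54.6 TPM. In both genes the N/D libraries enclosed the N/D/S libraries, with N/D replicate 1 the lowest of the 4. Their log2 differences were 0.34 ± 0.994 and 0.20 ± 1.03. Sv2a made up between 86.6% and 99.99% of the TPM of the Sv2 genes. Its relative Sv2c was at 8.37 and 0.0424 TPM against 0.00175 and 2.69 TPM, and Sv2b was listed at 0 in every library but N/D replicate 2, where it was at 0.896 TPM.

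The synaptotagmins had a median spread within the lines (residual SD of log2 values) of 1.25, against 0.62 for the vesicle surface genes. Syn3 (1.46) and Sv2c (1.84) varied more than any synaptotagmin, the widest of which was Syt4 (1.42). Syt1, the sensor of fast synchronous release, was at 68.3 and 30.9 TPM in N/D/S and at 52.4 and 86.4 TPM in N/D. Syt11, a family member that does not bind calcium, was at 276 and 59.1 TPM against 168 and 225 TPM. In both, N/D/S replicate 2 was the lowest library, and their log2 differences were -0.54 ± 1.02 and -0.60 ± 1.13. Without N/D/S replicate 2 the differences became 0.02 and 0.51.

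Syt5 was at 132 and 183 TPM in N/D/S and at 22.3 and 152 TPM in N/D. Syt4, an atypical synaptotagmin with a substitution in a calcium site, was at 75.4 and 10.8 TPM against 62.1 and 33.1 TPM. Syt2, a fast sensor like Syt1, was at 5.42 and 0.439 TPM against 2.33 and 1.77 TPM. Syt5 was lowest in N/D replicate 1, whereas Syt4 and Syt2 were lowest in N/D/S replicate 2. Syt7, the high-affinity sensor of asynchronous release, was at 3.45 and 0.449 TPM in N/D/S and at 20.2 and 3.54 TPM in N/D, so that both N/D/S libraries lay below both N/D libraries. Its log2 difference was -1.95 ± 1.20, with a 95% interval from -4.80 to 0.89, and the value was -0.84 with N/D replicate 1 left out but -3.06 with N/D replicate 2 left out. N/D replicate 2 was nearly equal to N/D/S replicate 1 for Syt7, and N/D replicate 1 was the only library above 10 TPM.

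The make-up of this family moved with the library. Syt5 made up 23.5% and 64.3% of the TPM of the 6 synaptotagmins in N/D/S and 6.81% and 30.3% in N/D. Syt11 made up 49.3% and 20.8% against 51.3% and 44.8%. Syt11 was thus the largest share in every library but N/D/S replicate 2, in which Syt5 was. The share of Syt1 stayed between 10.8% and 17.2%.

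**Figure D2:**
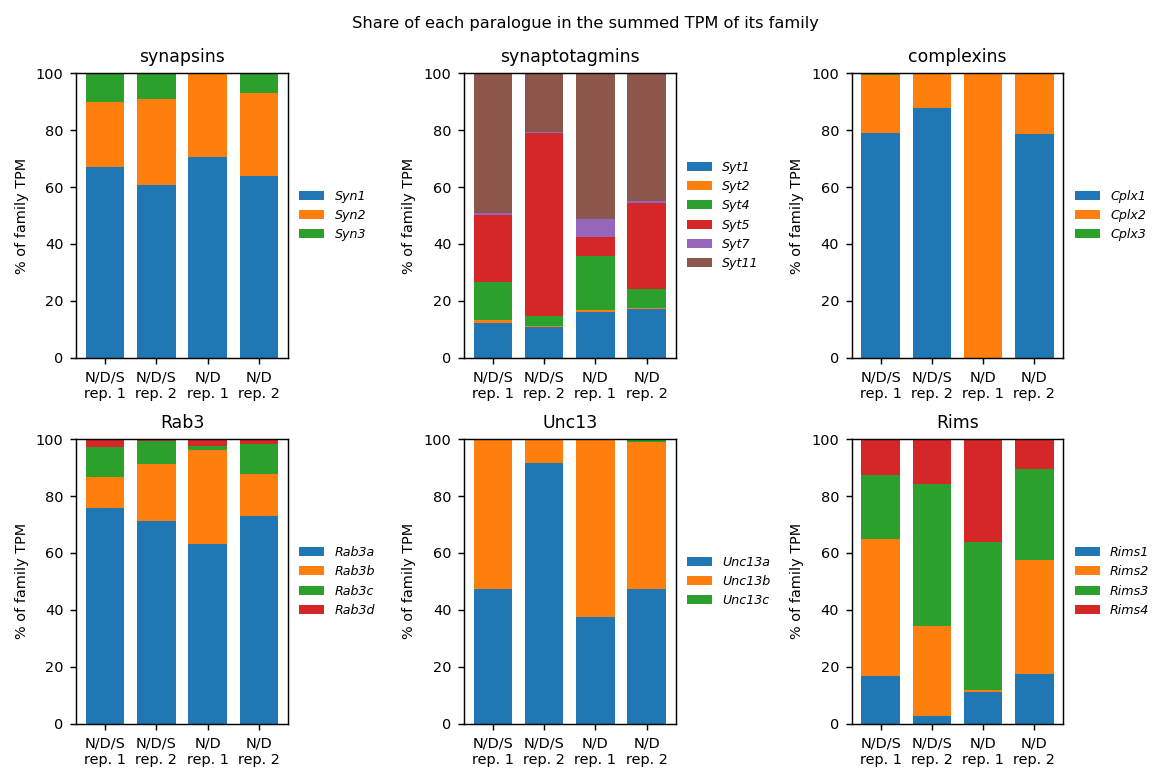
Share of each paralogue in the summed TPM of its family, in percent, with 1 stacked bar per library, for synapsins, synaptotagmins, complexins, Rab3, Unc13 and Rims genes. Cplx1 is 0 and Rims2 0.974% in N/D replicate 1, and Unc13a reaches 91.6% in N/D/S replicate 2.

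Vamp2 and Snap25, both SNARE genes, were among the highest members. Vamp2, the synaptobrevin of brain vesicles, was at 222 and 218 TPM in N/D/S and at 123 and 259.9 TPM in N/D. Snap25 was at 172 and 85.7 TPM against 89.0 and 205 TPM. Stx1a was at 33.8 and 47.4 TPM against 42.1 and 46.7 TPM. For all 3 the lines overlapped, and Stx1a kept within the narrowest range of them. Their log2 differences were 0.30 ± 0.996, -0.15 ± 1.04 and -0.14 ± 0.963. Vamp1, the synaptobrevin of spinal cord and brain stem, was at 2.38 and 1.59 TPM against 0.320 and 1.73 TPM, and Vamp2 made up at least 98.9% of the pair.

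Among the SNARE regulators, complexin I (Cplx1) was at 17.9 and 8.60 TPM in N/D/S, was listed at 0 in N/D replicate 1 and was at 23.3 TPM in N/D replicate 2. Complexin II (Cplx2) was at 4.64 and 1.18 TPM against 6.25 and 6.31 TPM. For Cplx2 both N/D/S libraries lay below both N/D libraries, with a log2 difference of -1.05 ± 1.02 and a 95% interval from -3.47 to 1.36, and the difference was -0.37 without N/D/S replicate 2. Cplx1 made up between 78.7% and 87.9% of complexin TPM in the 3 libraries where it was above 0. Cplx3, a retinal complexin, was at 0.129 TPM in N/D/S replicate 1 and at 0.00828 TPM in N/D replicate 2, and was listed at 0 in the other libraries.

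Nsf, the ATPase that takes SNARE complexes apart, was at 85.8 and 42.2 TPM in N/D/S and at 30.3 and 76.2 TPM in N/D. Its adaptor Napa (alpha-SNAP) was at 164 and 173 TPM against 121 and 140.4 TPM. Napb (beta-SNAP) was at 51.4 and 11.8 TPM against 38.2 and 27.0 TPM. Napa alone of these had both N/D/S libraries above both N/D libraries. Its log2 difference of 0.37 ± 0.956, with a 95% interval from -1.89 to 2.63, stayed between 0.26 and 0.48 with each library left out in turn. That of Nsf was 0.32 ± 1.05.

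Rab3 GTPases sit on vesicles and bind RIM scaffolds. Rab3a, the main Rab3 of brain vesicles, was at 472 and 502 TPM in N/D/S and at 204 and 429 TPM in N/D, so that both N/D/S libraries lay above both N/D libraries. Its log2 difference was 0.72 ± 0.996, with a 95% interval from -1.64 to 3.07, and fell to 0.18 without N/D replicate 1. Rab3c was at 66.2 and 55.9 TPM against 5.49 and 62.8 TPM. Rab3b was at 67.9 and 141 TPM against 106 and 87.2 TPM, and Rab3d at 16.1 and 5.70 TPM against 7.20 and 8.96 TPM. These 3 overlapped between the lines, and Rab3c was low in N/D replicate 1 alone. Rab3a made up between 63.1% and 75.8% of Rab3 TPM, with the lowest share in N/D replicate 1.

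Priming factors showed 1 even and 1 uneven member. Unc13a (Munc13-1), the priming factor of most glutamatergic synapses, was at 18.4 and 14.1 TPM in N/D/S and at 22.2 and 9.68 TPM in N/D. Unc13b (Munc13-2) was at 20.4 and 1.29 TPM against 37.1 and 10.5 TPM. Unc13b was lowest in N/D/S replicate 2, where Unc13a made up 91.6% of Unc13 TPM against 37.4% to 47.4% in the others. The log2 difference of Unc13a was 0.12 ± 1.00. Unc13c was at 0.143 TPM in N/D/S replicate 1, was listed at 0 in N/D/S replicate 2, and was at 0.00363 and 0.231 TPM in the N/D libraries.

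Active zone scaffolds organise the release site. Rims1, which binds Rab3 and Munc13, was at 9.58 and 0.754 TPM in N/D/S and at 1.98 and 6.78 TPM in N/D. Rims2, its close paralogue, was at 27.5 and 9.09 TPM against 0.176 and 15.6 TPM. N/D replicate 2 thus fell between the N/D/S libraries for both genes, and Rims2 was near 0 in N/D replicate 1 alone. The log2 difference of Rims2 was 1.94 ± 1.45, with a 95% interval from -1.49 to 5.37, and it was 0.03 without N/D replicate 1.

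The short isoform genes Rims3 and Rims4, which lack most domains of the large RIMs, were steadier. Rims3 was at 12.8 and 14.4 TPM in N/D/S and at 9.37 and 12.4 TPM in N/D. Rims4 was at 7.22 and 4.57 TPM against 6.49 and 4.15 TPM. For Rims3 both N/D/S libraries lay above both N/D libraries, but N/D/S replicate 1 exceeded N/D replicate 2 by little. Its log2 difference was 0.30 ± 0.960, with a 95% interval from -1.96 to 2.57, and it was 0.12 without N/D replicate 1 and 0.078 with quantile normalization.

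Erc1 (ELKS), which binds RIM and bassoon, was at 21.8 and 8.66 TPM in N/D/S and at 43.0 and 28.2 TPM in N/D. Its neuronal paralogue Erc2 (CAST) was at 38.8 and 27.5 TPM against 56.7 and 36.9 TPM. Piccolo (Pclo), a giant scaffold, was at 4.48 and 0.588 TPM against 6.42 and 4.68 TPM. Both N/D/S libraries lay below both N/D libraries for Erc1 and Pclo, while Erc2 overlapped because N/D replicate 2 was below N/D/S replicate 1. The log2 difference of Erc1 was -1.27 ± 1.02, with a 95% interval from -3.69 to 1.14, and that of Pclo -1.14 ± 1.07, with an interval from -3.67 to 1.39. Without N/D/S replicate 2 they were -0.65 and -0.24, and without N/D/S replicate 1 they were -1.89 and -2.03. Bassoon (Bsn), the partner of piccolo, was at 0.948 and 0.555 TPM in N/D/S, was listed at 0 in N/D replicate 1 and was at 1.54 TPM in N/D replicate 2.

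No member passed the test between the lines. With limma on log2(TPM + 1), 0 of 34 tested members had a Benjamini-Hochberg adjusted p under 0.05 and higher values in N/D/S, and 0 had lower values, against 0% of all 12975 genes in either direction. At an unadjusted p under 0.05 the count was 0 members against 0.0617% of all genes (8 genes). The adjusted p was 1 for every member, and the lowest unadjusted p of a member was 0.149, for Syt7. Standard errors of the members lay between 0.955 and 1.58, and the 95% interval of every member included 0. An exact permutation test of 2 libraries against 2 cannot give a two-sided p below 0.33.

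Counted by overlap, both N/D/S libraries lay above both N/D libraries for 4 of 34 members (11.8%), Syn3, Napa, Rab3a and Rims3, against 8.69% of all genes. They lay below for 4 (11.8%), Syt7, Cplx2, Pclo and Erc1, against 8.23%. The members' shares were near the background in both directions. The median log2 difference was 0.07 over the members, 19 positive and 15 negative, against 0.26 over all genes tested, and both turned negative with quantile normalization (-0.11 and -0.05). By role the median was positive for the vesicle surface genes (0.27), the SNAREs (0.08, negative with quantile normalization), the SNARE regulators (0.32) and Rab3 (0.48). It was negative for the synaptotagmins (-0.57), Unc13 (-0.73) and the scaffolds (-0.16). Roles held 2 to 7 tested genes. The 2 of Unc13 went opposite ways, Unc13a at 0.12 and Unc13b at -1.58. Without N/D replicate 1 the median was negative for every role but Rab3 (0.14), and without N/D/S replicate 2 it was positive for every role. Rab3 was the role in which all tested members, 4 of 4, had a positive value, beside 7967 of all 12975 genes, although Rab3b turned negative with median-of-ratios scaling and with quantile normalization and Rab3d with the latter. With 1 library left out, Rab3b was negative without N/D/S replicate 2 (-0.50) or N/D replicate 2 (-0.12), Rab3d without N/D/S replicate 1 (-0.43) and Rab3c without N/D replicate 1 (-0.045).

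**Figure D3:**
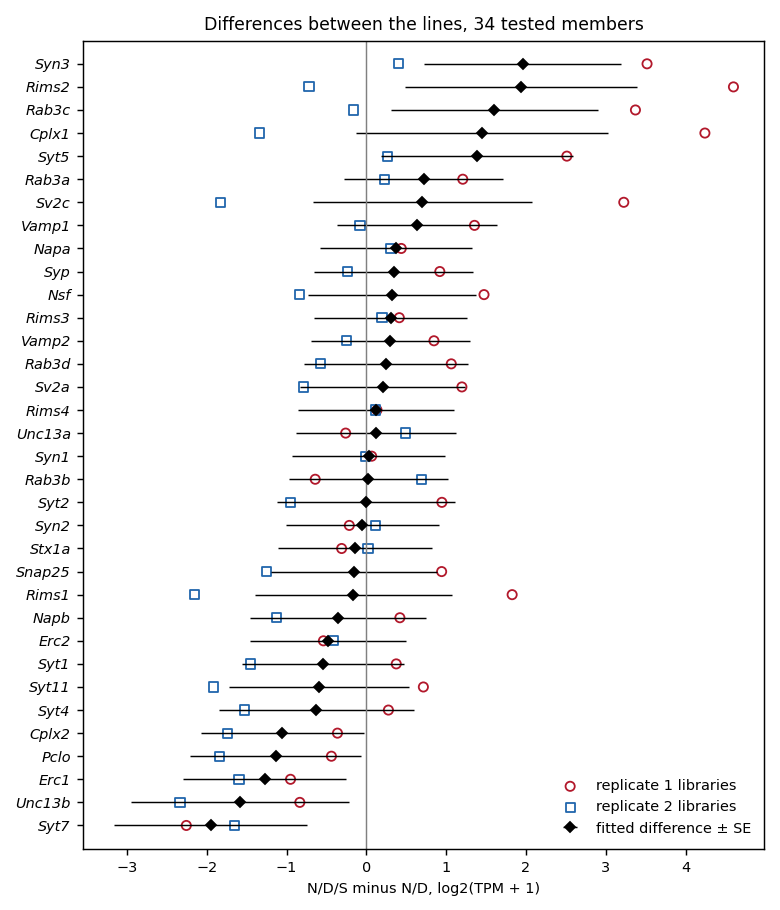
Log2 difference, N/D/S minus N/D on log2(TPM + 1), of the 34 tested members, with the fitted difference ± SE as diamonds and the difference between same-numbered libraries as circles (replicate 1) and squares (replicate 2). The circles mostly lie right of 0 (24 of 34) and the squares mostly left of it (24 of 34), and the SE spans 0 for most members.

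The same-numbered libraries gave opposite pictures. N/D/S replicate 1 was above N/D replicate 1 for 24 of 34 members (70.6%), with a median of 0.58 on the log2 scale, against 72.5% and 1.14 over all genes. N/D/S replicate 2 was above N/D replicate 2 for 10 of 34 members (29.4%), with a median of -0.65, against 25.2% and -0.62. 6 members were positive in both (17.6%) and 6 negative in both (17.6%), against 15.9% and 17.9% of all genes. The members followed the direction of all genes in each pair.

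N/D replicate 1 stood apart from the other libraries. It held 13426 shared symbols above 0 against 17118 to 20750 in the others, and its correlation with them over log2 values of tested genes was between 0.73 and 0.76, against 0.88 to 0.95 among the others. Of the genes at 5 TPM or more in each of the other libraries, 23.1% (1821 of 7884) were under 0.5 TPM in it, and so were 3 of 25 members, Syn3, Cplx1 and Rims2. The same count for each other library was at most 0.315% of genes and 0 members. Without N/D replicate 1, both N/D/S libraries lay above N/D replicate 2 for 6 members (17.6%), Syn3, Napa, Rab3a, Unc13a, Rims3 and Rims4, against 13.3% of all genes. They lay below it for 10 members (29.4%), Syp, Sv2a, Syt1, Syt7, Snap25, Vamp2, Cplx1, Cplx2, Pclo and Erc1, against 31.9%. The difference changed sign without that library for 8 members. It went from positive to negative for Syp, Sv2a, Sv2c, Vamp2, Cplx1, Nsf and Rab3c and from negative to positive for Syt2. Snap25 and Stx1a were negative and Syn1 positive either way. The share of all genes that changed sign was not counted.

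N/D/S replicate 2 was lowest for 15 of 34 members (44.1%) against 30.7% of all genes, and its low values went with transcript length. For the 7 members whose longest GENCODE transcript is under 3000 bases, its median difference from the median of the other libraries was 0.17 on the log2 scale. It was -0.75 for the 16 members of 3000 to 6000 bases, 13 of them below, and -1.60 for the 11 members of 6000 bases or more, 10 of them below. Over all genes the same medians were -0.16, -0.78 and -1.08, with 79.3% of genes below in the middle class and 87.3% in the longest, near the members' 81.2% and 90.9%. Across the members Pearson's r between log length and this difference was -0.58 and Spearman's rho -0.57 (n = 34 genes of the same 4 libraries, which are not independent replicates), against -0.32 and -0.36 over 12869 genes. In N/D/S replicate 1, of the same line, r was 0.23 and rho 0.18 across the members, against 0.29 and 0.34 over all genes.

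Rab3a, Syt5, Stx1a, Cplx1 and Vamp2 are the shortest members tested by this measure, at 1556, 1750, 2167, 2189 and 2205 bases. Unc13b and Pclo are the longest members tested. In N/D replicate 1 the members went another way, with medians of -0.92, -0.33 and 0.44 from short to long, against -0.77, -1.37 and -1.34 over all genes. All 7 short members were below the median of the other libraries there, as were 65.3% of all short genes. The part of transcript length in the differences between the lines was not tested. With N/D/S replicate 2 left out, the remaining N/D/S library lay above both N/D libraries for 17 members (50%) against 42.8% of all genes, and below both for 7 (20.6%), Syn2, Syt7, Stx1a, Cplx2, Rab3b, Pclo and Erc1, against 13.6%.

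**Figure D4:**
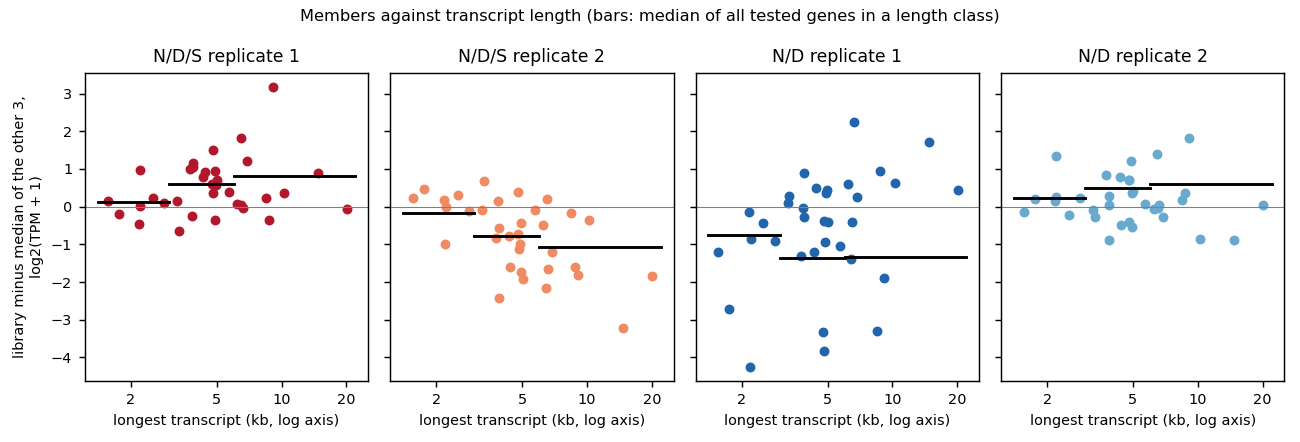
Difference of each library from the median of the other 3, in log2(TPM + 1), against the longest annotated transcript in kb on a log axis, with 1 point per tested member and with bars at the median of all tested genes in 3 length classes. The members descend with length in N/D/S replicate 2, from a median of 0.17 to -1.60, and scatter over the widest range in N/D replicate 1.

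Of the members of the set, 11 of 34 kept the sign of their difference in every alternative that gave them a value, which for Syn3, Syt7, Rims2 and Pclo leaves out the filter of 1 TPM in every library. Syn3, Syt5, Napa, Rab3a, Rims2 and Rims3 stayed positive, and Syt7, Cplx2, Pclo, Erc1 and Erc2 stayed negative. None of them passed the threshold with all 4 libraries. For all but Syt5, Rims2 and Erc2 the groups did not overlap, so no pseudocount and no left-out library could turn the sign. A variance trend and the replicate block do not change the difference either. Their kept sign thus adds little to the count by overlap. Without N/D replicate 1 the differences of Syt5 and Rims2 were 0.03 and that of Erc2 was -0.17. The sign of 8 members turned without N/D replicate 1, of 6 without N/D replicate 2, and of 9 when either N/D/S library was left out. The same counts were not made over all genes, so they do not show whether the members were more or less stable than other genes.

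The wider vesicle cycle was described with 74 further genes of exocytosis, vesicle membranes and endocytosis, of which 68 were tested. None passed the threshold in either direction (limma, Benjamini-Hochberg) or had an unadjusted p under 0.05. Both N/D/S libraries lay above both N/D libraries for 2 of them (2.94%) and below for 3 (4.41%), against 8.69% and 8.23% of all genes. Dynamin 1 (Dnm1), which cuts vesicles from the membrane, was at 67.6 and 64.9 TPM in N/D/S and at 26.7 and 52.0 TPM in N/D, a log2 difference of 0.81 ± 0.986. Endophilin A2 (Sh3gl1) was at 91.8 and 75.2 TPM against 28.7 and 74.4 TPM, a difference of 0.83 ± 1.02. Both genes were lowest in N/D replicate 1, and for Sh3gl1 the libraries nearest each other differed by under 1 TPM. Without that library the differences were 0.34 for Dnm1 and 0.16 for Sh3gl1. Endophilin A1 (Sh3gl2) was at 19.9 and 11.5 TPM against 35.4 and 21.3 TPM, a difference of -0.82 ± 0.993. Amphiphysin (Amph), which recruits dynamin, was at 30.8 and 14.4 TPM against 33.4 and 39.6 TPM, a difference of -0.76 ± 0.996. Without N/D/S replicate 2 the differences were -0.45 for Sh3gl2 and -0.23 for Amph. The third gene below was Rab3gap1, a Rab3 GTPase-activating subunit. The median difference of these 68 genes was 0.25, beside 0.26 over all genes, and leaving out N/D replicate 1 gave -0.37 but leaving out N/D replicate 2 gave 1.20, beside -0.29 and 0.88.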

How the data were processed

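RNA from tdTomato+ neurons sorted on day 12 was poly-A enriched and sequenced in paired ends, with 2 libraries per line. The authors pseudoaligned reads with kallisto 0.44.0 to a mouse transcriptome index, and the deposited files hold 1 TPM value per gene symbol. The submitters' processing notes name the genome build GRCm38 and sleuth. The transcriptome release, the way transcripts were combined into a symbol and any scaling between libraries are not given in the sources used here. TPM keep no read counts, so the depth is unknown and no counting interval is given, and an exact 0 may be a failed estimate.

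Files were joined on symbol, without symbols turned into dates or listed in duplicate, and 203 and 210 symbols found in the replicate 1 or replicate 2 files alone were left out. Groups and replicate numbers came from the labels. Genes reaching 1 TPM in 2 or more libraries were fitted with limma 3.58.1 in R 4.3.3 on log2(TPM + 1), 2 libraries against 2 without covariates. Benjamini-Hochberg adjustment was made over all genes tested, with a threshold of 0.05, and the script was tested on simulated data. Spearman and Pearson correlations are across genes and carry no p. The longest transcript and gene positions came from GENCODE M21, upstream sequence from RefSeq (GRCm38.p6). Other steps used pandas 2.3.3 and numpy 2.4.6, plots matplotlib 3.10.9, all under Python 3.11.15.

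The members were listed by role and not by a value, but they and the other lists were chosen with earlier results of these data known. Every member is given with its TPM. The test is printed for a panel chosen by role, for up to 4 members in each direction with the largest difference among those whose groups do not overlap, and for up to 2 other vesicle-cycle genes in each direction by the same rule. Members outside this rule, the limits for values near 0 and the length classes were picked after values were seen. Alternatives were pseudocounts of 0.1 and 0.5, other filters and scalings, a variance trend, the replicate number as a block, and each library left out.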

Additional observations from a re-analysis of the deposited data

How the results depend on the processing

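Among 334 alternative values for 26 results, 16 differences of single genes turned their sign, 3 newly passed the threshold and 2 counts of members moved. The counts of members past the threshold, 0 higher and 0 lower, stayed at 0 under other pseudocounts, filters and scalings and with a variance trend. Leaving out each library in turn gave 0 to 4 members higher and 0 to 1 lower. The 4 (Syn3, Cplx1, Rab3c and Rims2) and the 1 (Syt7) came from the fit without N/D replicate 2, in which N/D replicate 1 is the only N/D library, is assumed to vary like the other group, and 2373 genes passed in all. There the log2 differences were 3.85 for Rims2, 3.42 for Syn3 and -3.06 for Syt7, with limma adjusted p of 0.00838, 0.0216 and 0.0436, against 0.999 to 1 for these genes under the other alternatives. The sign of Syn1 turned with median-of-ratios scaling (-0.0197). With a library left out, the log2 difference ranged from -0.053 to 0.11 for Syn1, -0.40 to 0.81 for Sv2a, -0.18 to 0.87 for Syp, -1.10 to 0.0198 for Syt1, -1.70 to 0.51 for Syt11, -0.75 to 0.45 for Snap25, -0.24 to 0.84 for Vamp2, -0.38 to 0.094 for Stx1a, -0.33 to 0.97 for Nsf and -0.44 to 0.68 for Unc13a. The members' median turned negative with quantile normalization (-0.11) and when N/D/S replicate 1 (-0.17) or N/D replicate 1 (-0.18) was left out, and was 0.40 without N/D/S replicate 2, and the cause of these turns was not tested.

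With a variance trend (limma-trend) 6 genes passed in all and no member, and 1 member, Syt5, had an unadjusted p under 0.05 (0.0377), as did 224 of 12975 genes. Other settings moved the median of all genes from 0.26 to -0.05 with quantile normalization, to -0.15 with at least 1 TPM in every library, to 0.02 with no filter and to 0.38 with a pseudocount of 0.1, and the members' median to -0.11, 0.03, 0.06 and 0.08. At least 1 TPM in every library left 25 members. With the replicate number as a replicate block, 0 members were higher and 0 lower, the median was 0.07 and the lowest unadjusted member p in limma was 0.163. Deviations of same-numbered libraries from their line's mean correlated at 0.0197 over 12975 genes, and the main fit did not pair the libraries by number. That correlation alone cannot show that the numbers carry no shared effect. Summed pluripotent markers were higher in both replicate 2 libraries, and the symbols listed differed between the replicate 1 and replicate 2 files. Whether the numbers mark a batch was not tested. With 2 libraries per line and depth unknown, a missing call does not show equal levels.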
